A study of Homo sapiens with 9 samples.

Results

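Interferon-stimulated genes were measured in undifferentiated Caco-2 cells (uCaco-2) after exposure to CoCl2 or an oxyquinoline derivative (OD). Caco-2 is an established human colorectal adenocarcinoma line, and undifferentiated cells are those taken before the line forms an enterocyte-like layer. The 37 genes were chosen as a list of named members, and all 37 had a row among the 60591 gene symbols in the table. Of the 37, 31 had a count in all 9 libraries, 28 reached 10 counts in at least 3 libraries, and 28 passed the filter on low counts and were tested. The other 9 (DHX58, IFITM1, IFITM3, OAS2, OASL, MX2, IFI44, IFI44L and XAF1) never exceeded 10 counts in a library.

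Messenger RNA was sequenced from 3 groups of 3 biological replicates. The control cells received fresh medium with 0.5% DMSO, the CoCl2 cells received 300 μM CoCl2 with 0.5% DMSO, and the OD cells received 5 μM OD in 0.5% DMSO, each for 24 h. All 9 libraries came from 1 cell line, and the DMSO was common to every group. CoCl2 and OD were used as activators of hypoxia-inducible factor (HIF) signalling, the transcriptional response to low oxygen.

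Type I and type III interferons bind receptors at the cell surface and activate the kinases JAK1 and TYK2, which phosphorylate STAT proteins. Phosphorylated STAT2 acts with IRF9 in the complex ISGF3, which binds the interferon-stimulated response element (ISRE) in promoters of antiviral genes. Some of these genes are also driven directly by interferon regulatory factors (IRFs) downstream of sensors of viral RNA and cytosolic DNA, and many keep a basal level in epithelial cells without interferon. Their products degrade viral RNA, block its translation, modify proteins with ISG15 or restrict entry and budding of viruses.

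Library totals were 15998136 to 18298190 counts in control, 16286502 to 24209427 with CoCl2 and 16387054 to 19623776 with OD. Levels are given as CPM, the counts scaled to a common library total after TMM adjustment, with factors of 0.770 to 0.795 with CoCl2, 1.11 to 1.12 in control and 1.14 to 1.15 with OD. Scaling on library size alone moved the median log2 fold change of all tested genes to -0.55 for CoCl2 against control and to -0.60 for CoCl2 against OD, so modest changes with CoCl2 depend on the scaling. The hypoxia-responsive gene VEGFA, which encodes an angiogenic growth factor, rose from 118 to 125 CPM in control to 278 to 287 with CoCl2 and 315 to 324 with OD. CA9, a carbonic anhydrase induced by HIF, had at most 0.71 CPM in any library and was not tested. Its counts were 0, 1 and 0 in control, 2, 2 and 5 with CoCl2 and 10, 16 and 10 with OD. All 10 enterocyte and colon epithelium markers were tested, and their summed level was 11106 to 11646 CPM in control, 13312 to 14267 with CoCl2 and 10570 to 11124 with OD. The keratins KRT8 and KRT18 made up most of that sum, and VIL1, an enterocyte marker, went from 596 to 632 CPM in control to 108 to 119 with CoCl2 and 445 to 460 with OD. The mean of KRT20 was also lower with CoCl2 (1.74 CPM) than in control (4.49). Every other marker on this list had a higher mean with CoCl2, such as EPCAM (752 in control and 966 CPM) and HNF4A (309 and 411). Such modest differences depend on the scaling. Of 9 immune cell markers 8 stayed under 10 counts everywhere, and the summed level was 4.56 to 5.54, 5.35 to 5.79 and 2.82 to 2.93 CPM in the same order. For 5 fibroblast markers, 3 of them tested, the sums were 22.6 to 26.4, 18.2 to 20.7 and 30.5 to 32.5 CPM, and for 4 endothelial markers, 2 of them tested, 2.69 to 3.28, 2.36 to 2.94 and 2.93 to 3.50 CPM. The part of these markers in the results was not tested.

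The promoters show what many of the genes share in sequence. RefSeq promoter windows on GRCh38.p14, from 250 bases before to 50 after a start, matched 26 of the 37 members by symbol, with 33 windows. An ISRE core, spelled GAAANNGAAA or TTTCNNTTTC on the other strand, was found in 24 of the 33 windows (72.7%) and in 20 of the 26 genes, against 3.57% of 35116 windows of all genes. The gamma-activated site, TTCNNNGAA, which reads the same on both strands, was in 10 member windows (30.3%) against 7.66% of all windows. The hypoxia response element core, ACGTG or GCGTG with its reverse strand, was in 9 member windows (27.3%) against 48.4%. A match is a run of letters and does not show that a factor was bound. The 8 sequences below were chosen because their genes span the responses described further on, from strong loss with CoCl2 to gain with OD; capitals mark ISRE matches, which overlap one another in ISG15 and BST2, and each stretch starts 40 bases before its first match.
DTX3L, chr3:122564292-122564341, plus strand: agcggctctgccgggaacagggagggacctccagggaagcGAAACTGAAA
OAS3, chr12:112938291-112938473, plus strand: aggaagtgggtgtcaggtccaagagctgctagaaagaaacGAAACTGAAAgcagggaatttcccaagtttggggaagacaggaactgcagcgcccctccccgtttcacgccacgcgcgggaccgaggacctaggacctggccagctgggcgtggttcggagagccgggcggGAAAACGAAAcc
ISG20, chr15:88638907-88638996, plus strand: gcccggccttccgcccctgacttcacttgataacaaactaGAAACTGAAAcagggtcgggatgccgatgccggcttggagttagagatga
SAMD9, chr7:93118066-93118155, minus strand: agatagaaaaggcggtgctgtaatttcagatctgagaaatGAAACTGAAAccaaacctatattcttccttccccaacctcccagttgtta
IFIT1, chr10:89392467-89392569, plus strand: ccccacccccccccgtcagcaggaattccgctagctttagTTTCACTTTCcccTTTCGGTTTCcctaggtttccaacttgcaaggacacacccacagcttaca
ISG15, chr1:1013344-1013439, plus strand: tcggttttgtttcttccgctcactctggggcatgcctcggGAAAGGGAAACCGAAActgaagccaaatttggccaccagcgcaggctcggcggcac
BST2, chr19:17405705-17405800, minus strand: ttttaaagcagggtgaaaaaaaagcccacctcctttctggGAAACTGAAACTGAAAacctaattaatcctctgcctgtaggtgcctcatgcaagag
MX1, chr21:41420529-41420578, plus strand: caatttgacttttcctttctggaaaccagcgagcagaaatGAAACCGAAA

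The match shown for DTX3L also lies in a window of PARP9, its neighbour on the opposite strand, so these genes share 1 ISRE match, which spans the RefSeq start of DTX3L. The MX1 match printed above lies just after the first of its 3 RefSeq starts.

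**Figure D1:**
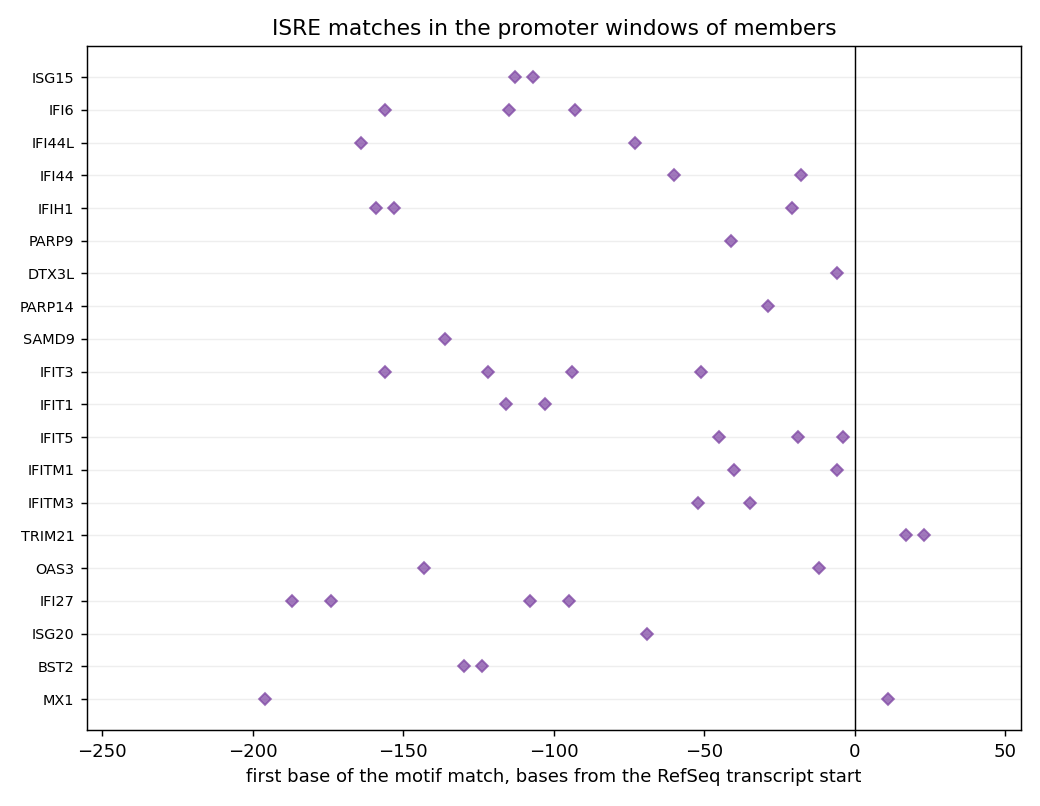
ISRE core matches in the RefSeq promoter windows of the members, by distance in bases from each annotated start. Matches are plotted once per start (vertical line), so a match inside 2 windows of 1 gene is drawn for each. The first base of every match lies before the start except for those of TRIM21 and 1 of MX1.

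A gene was called changed at an adjusted p under 0.05 in edgeR's quasi-likelihood test together with a log2 fold change beyond 1 in either direction, and the verbs rose and fell are used for any change with an adjusted p under 0.05. With OD, 16 of the 28 tested members were called higher, where 9.09% of all 15944 tested genes were, and 0 were called lower, where 4.16% were. DESeq2 also called 0 lower, and 2 members were lower with OD at an unadjusted p under 0.05. By adjusted p alone, 24 members were higher with OD and 2 lower, against 32.3% and 33.3% of all genes. With CoCl2, 7 members were called higher and 6 lower, against 19.9% and 23.4% of all genes. By adjusted p alone the counts with CoCl2 were 14 and 7, against 40.4% and 42.8%. The share of members called in either direction with CoCl2 was therefore near the background, and the share called higher with OD was above it. Both comparisons used the same 3 control libraries. The sequencing was of bulk RNA, in which a change in every cell and a change in a share of the cells cannot be told apart.

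Compared directly, 11 members were called lower with CoCl2 than with OD and 2 were called higher, where 23.8% and 17.5% of all genes were. By adjusted p alone 19 were lower and 5 higher, against 43.2% and 40.2%. The median log2 fold change of the tested members was 1.14 for OD against control, 0.45 for CoCl2 against control and -0.60 for CoCl2 against OD, where the medians of all tested genes were -0.010, -0.049 and -0.054. Under scaling on library size alone the members' medians were 1.18, -0.057 and -1.15, beside 0.029, -0.55 and -0.60 for all tested genes. The filter on low counts limits these summaries, since 9 of the 28 tested members averaged under 1 CPM in control and some could pass through the group in which they were high. Among the 15 members with a mean of at least 5 CPM over all libraries, a limit chosen after the values were seen, 5 were called higher with OD (33.3%, against 5.18% of 10431 such genes) and 13 rose by adjusted p alone (86.7% against 34.9%). With CoCl2 3 of these 15 were called higher and 4 lower, against 17.6% and 19.6% of such genes.

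**Figure D2:**
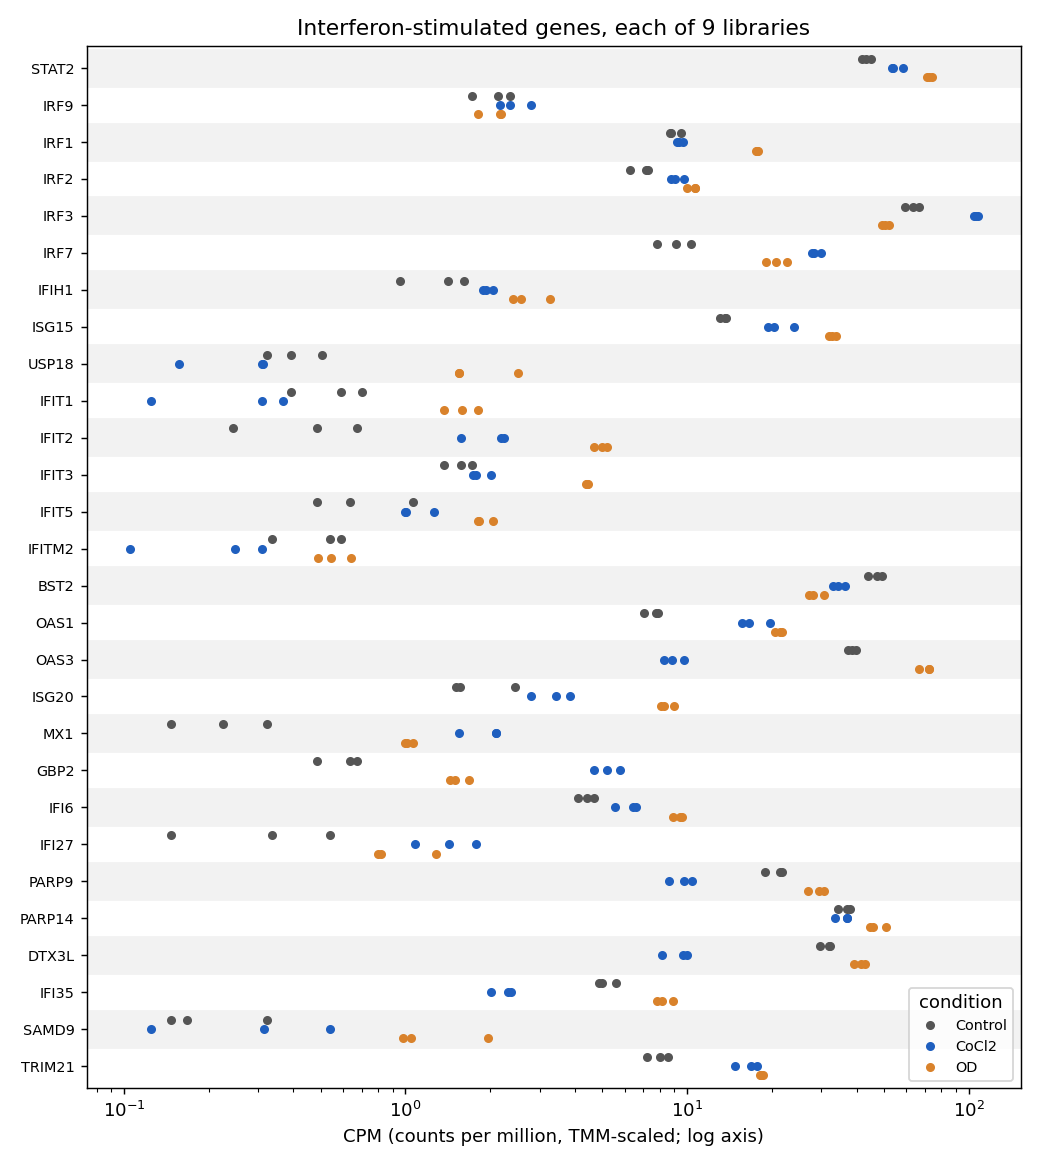
Level of each of the 28 tested members (rows, by role) in each of the 9 libraries, in CPM on a log axis, with 1 point per library coloured by group. The 3 OD libraries lie to the right of every control library for the IFIT genes and ISG20, and the 3 CoCl2 libraries lie to the left of both other groups for OAS3, PARP9, DTX3L and IFI35.

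**Figure D3:**
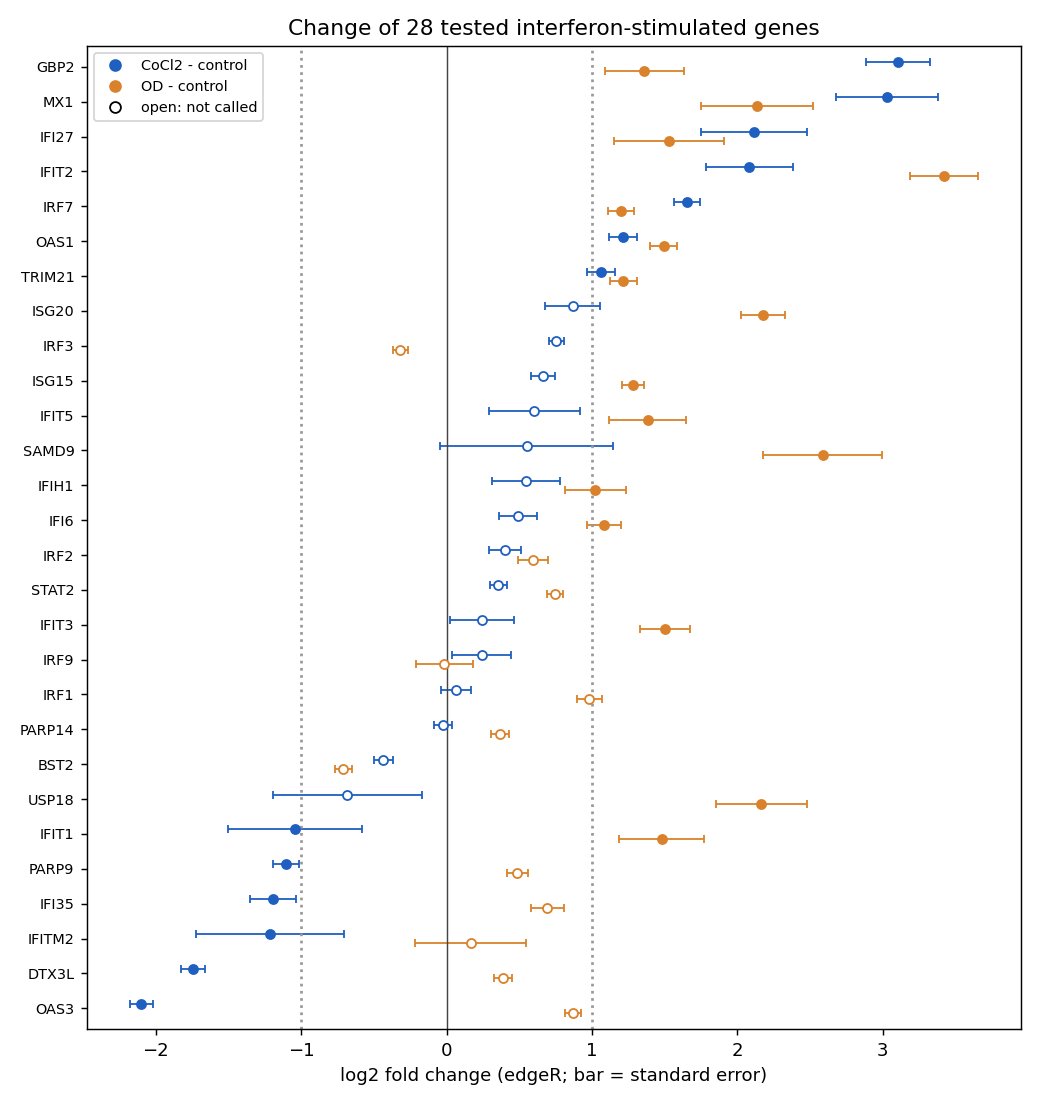
Log2 fold change of each tested member against control with CoCl2 and with OD, with bars for standard errors, dotted lines at a log2 fold change of 1 in either direction and open points for genes not called. With an adjusted p under 0.05 for both, OAS3, DTX3L, PARP9, IFI35 and IFIT1 lie below 0 with CoCl2 and above 0 with OD. IRF3 lies the other way around, and both treatments lie above 0 for GBP2, MX1, IFIT2, IFI27 and IRF7.

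Of the 6 transcription factors on the list, IRF7 alone was called against control with either agent. STAT2, the subunit that gives ISGF3 its activation domain, stood at 43.1, 44.9 and 41.7 CPM in control, 53.4, 53.9 and 58.5 with CoCl2 and 74.3, 72.2 and 71.2 with OD. All 3 groups were separate, and OD raised STAT2 by a log2 fold change of 0.75 (SE 0.054, adjusted p = 1.81e-19). With CoCl2 the log2 fold change was 0.36 (SE 0.056), which turned to -0.15 when libraries were scaled on size alone. IRF9, the DNA-binding subunit of ISGF3, stood between 1.72 and 2.80 CPM in all 9 libraries, and its groups overlapped. Its adjusted p was 0.262 for CoCl2 and 0.951 for OD. Other genes overlap 27.2% of its exonic bases.

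The interferon regulatory factors did not respond alike. IRF7, a factor that amplifies type I interferon production, was at 10.3, 7.84 and 9.14 CPM in control, 28.2, 29.9 and 27.8 with CoCl2 and 19.1, 22.6 and 20.8 with OD. It was called higher with both agents, by 1.65 (SE 0.088) with CoCl2 and 1.20 (SE 0.089) with OD, and it was higher with CoCl2 than with OD by 0.45 (SE 0.075), though this last difference was -0.092 under scaling on library size alone. IRF3, the constitutively expressed factor activated by virus sensing, rose by 0.75 (SE 0.051) with CoCl2 and fell by 0.32 (SE 0.053) on the log2 scale with OD. It was at 63.6, 59.2 and 66.4 CPM in control, 106, 105 and 108 with CoCl2 and 52.3, 49.0 and 50.4 with OD, so no libraries of different groups overlapped. IRF3 was called higher with CoCl2 than with OD (log2 fold change 1.07, SE 0.051, adjusted p = 1.48e-28), a difference of 0.53 under scaling on library size alone, and 19.3% of its exonic bases overlap others, among them BCL2L12 on the opposite strand.

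IRF1, which is induced by interferon gamma and drives basal antiviral genes, rose with OD. It was at 8.77, 8.73 and 9.48 CPM in control, 9.64, 9.21 and 9.33 with CoCl2, and 17.8, 17.6 and 17.9 with OD. The OD libraries lay above all the others, with a log2 fold change of 0.98 (SE 0.086) against control that reached 1.02 and the fold limit without control replicate 3, and the CoCl2 and control libraries overlapped. IRF2, a factor that binds the same sites as IRF1, rose by 0.40 (SE 0.11) with CoCl2 and 0.59 (SE 0.10) with OD, and the CoCl2 value was -0.10 under scaling on library size alone.

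The IFIT genes lie side by side on chromosome 10 and encode related proteins, of which IFIT1 binds viral RNA lacking host cap marks and blocks its translation. All 4 (IFIT1, IFIT2, IFIT3 and IFIT5) were called higher with OD. IFIT2 (chr10:89283694-89309271, plus strand) had 0.484, 0.245 and 0.673 CPM in control, 2.18, 2.24 and 1.57 with CoCl2 and 5.00, 5.19 and 4.69 with OD. The groups did not overlap, and IFIT2 rose by 3.42 (SE 0.23, adjusted p = 1.95e-20) with OD and by 2.08 (SE 0.30, adjusted p = 4.86e-09) with CoCl2. Its control counts were 9, 5 and 12, so it passed the filter through the treated groups, in which it was high. IFIT2 shares 13.6% of its exonic bases with other genes, LIPA among them.

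IFIT1 (chr10:89392546-89406487, plus strand), whose upstream sequence with 2 ISRE matches is printed above, had 13, 12 and 7 counts in control, 2, 4 and 7 with CoCl2 and 35, 31 and 34 with OD. In CPM these were 0.699, 0.588 and 0.393, then 0.124, 0.310 and 0.367, then 1.59, 1.38 and 1.81, so the OD libraries lay above the rest and the CoCl2 libraries just under control. IFIT1 was called higher with OD (1.48, SE 0.29, adjusted p = 1.18e-05) and lower with CoCl2 than with OD (-2.52, SE 0.37, adjusted p = 6.54e-09). It passed the filter only with its OD libraries, in which it was high. Its call against control with CoCl2 (-1.04, SE 0.46, adjusted p = 0.0343) was not stable. The adjusted p was 0.125 without control replicate 1, 0.0703 without control replicate 2, 0.188 without CoCl2 replicate 1, and 0.129 in DESeq2. IFIT3 went from 1.72, 1.37 and 1.57 CPM in control to 4.45, 4.39 and 4.37 with OD and was at 1.74, 2.01 and 1.78 with CoCl2. Its OD libraries stood apart from the others, with a log2 fold change of 1.503 (SE 0.17). IFIT5 followed with 1.38 (SE 0.26) with OD and 0.60 (SE 0.31, adjusted p = 0.068) with CoCl2. Its control counts were 9, 13 and 19, so it passed the filter with the help of treated libraries.

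The OAS proteins are sensors of double-stranded RNA that make a second messenger for the decay of viral RNA, and OAS3 gave the widest gap between the agents among the tested members. OAS3 (chr12:112938051-112976460, plus strand) was at 39.8, 38.5 and 37.4 CPM in control, 8.27, 8.82 and 9.75 with CoCl2 and 72.3, 72.3 and 66.6 with OD. The 3 groups were far apart, and OAS3 fell by 2.099 (SE 0.079, adjusted p = 3.95e-34) on the log2 scale with CoCl2 and rose by 0.87 (SE 0.056, adjusted p = 1.32e-21) with OD. Between the agents the log2 fold change was -2.97 (SE 0.073, adjusted p = 5.06e-44).

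OAS1, the neighbour of OAS3 on chromosome 12, did not follow it. It was at 7.75, 7.06 and 7.85 CPM in control, 15.6, 16.6 and 19.8 with CoCl2 and 20.6, 21.4 and 21.7 with OD, and its groups did not overlap. OAS1 was called higher with CoCl2 (1.21, SE 0.097, though 0.71 under scaling on library size alone) and with OD (1.49, SE 0.091). OAS2 and OASL, from the same family, had at most 7 and 9 counts in a library and were not tested. The RefSeq window of OAS1 held no ISRE core, where that of OAS3 held 2. Only the spelling given above was searched, so an element with another spacing would not be counted.

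ISG20 is an exonuclease that degrades single-stranded RNA. It was at 1.56, 2.45 and 1.51 CPM in control, 3.42, 2.79 and 3.83 with CoCl2 and 8.08, 8.26 and 8.999 with OD, with no overlap between groups. OD raised it by 2.17 (SE 0.15, adjusted p = 4.60e-20) and CoCl2 by 0.87 (SE 0.19), which was 1.14 and past the fold limit without control replicate 2. Directly, ISG20 was lower with CoCl2 than with OD by 1.31 (SE 0.14).

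**Figure D4:**
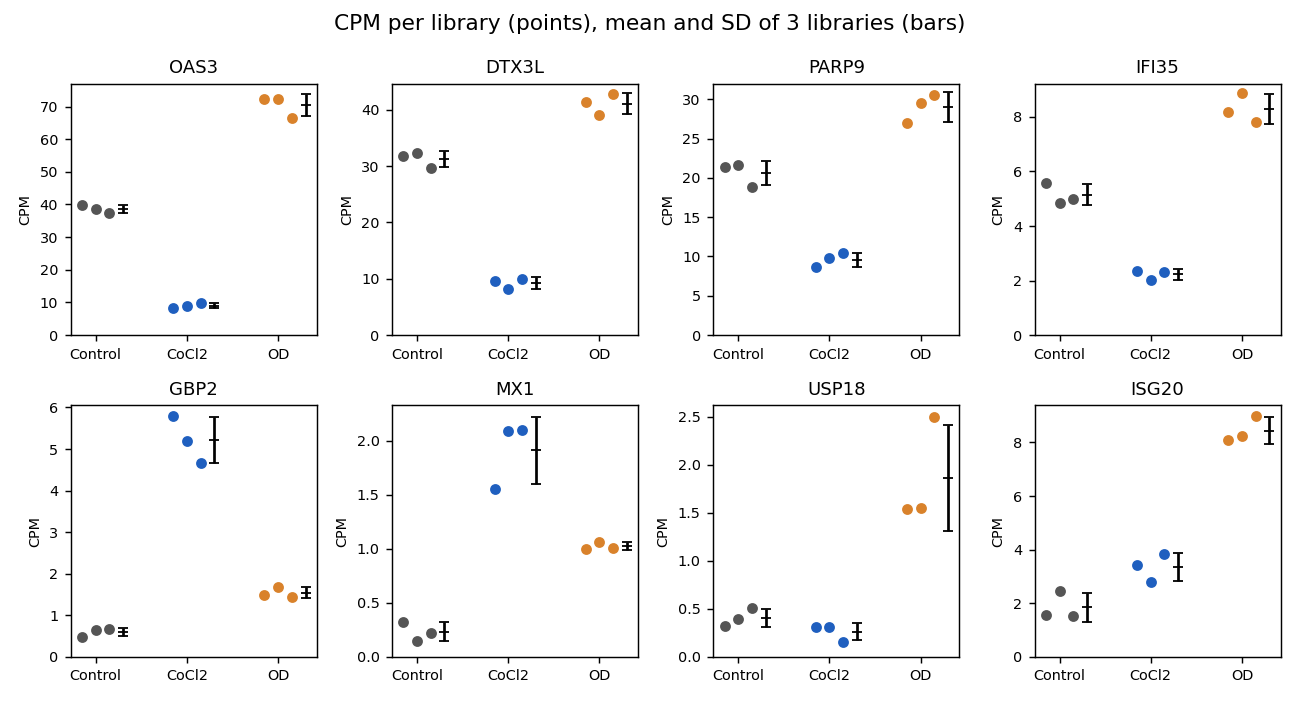
CPM of 8 members in each of the 9 libraries (points), by group, with the mean and SD of the 3 libraries beside them. OAS3, DTX3L, PARP9 and IFI35 sit lowest with CoCl2, GBP2 and MX1 highest with CoCl2, and USP18 and ISG20 highest with OD.

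PARP9 and DTX3L encode partners in a complex that adds ADP-ribose and ubiquitin to proteins in the interferon response. They lie head to head on chromosome 3, and both fell with CoCl2 and rose with OD. DTX3L (chr3:122564338-122575203, plus strand) was at 31.8, 32.3 and 29.7 CPM in control, 9.64, 8.13 and 10.0 with CoCl2 and 41.3, 39.1 and 42.8 with OD. The groups were separate, with a log2 fold change of -1.74 (SE 0.083, adjusted p = 8.59e-29) for CoCl2 and 0.39 (SE 0.063, adjusted p = 1.49e-07) for OD. PARP9 (chr3:122527924-122564577, minus strand) was at 21.4, 21.7 and 18.8 CPM in control, 8.65, 9.75 and 10.4 with CoCl2 and 26.9, 29.5 and 30.6 with OD, and its groups were separate too. Its log2 fold changes were -1.10 (SE 0.091) and 0.49 (SE 0.072). The genes overlap over 1.56% of the exonic bases of PARP9 and 2.41% of those of DTX3L.

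PARP14, another ADP-ribosyltransferase that lies nearby on the same chromosome, overlapped between control (34.3 to 37.8 CPM) and CoCl2 (33.6 to 36.9 CPM). It rose by 0.37 (SE 0.060) with OD, to 44.7 to 50.9 CPM. IFI35, a small leucine-zipper protein, resembled PARP9: it was at 5.60, 4.85 and 4.99 CPM in control, 2.36, 2.01 and 2.31 with CoCl2 and 8.17, 8.88 and 7.83 with OD. Its groups were separate, with -1.19 (SE 0.16) for CoCl2 and 0.69 (SE 0.12) for OD.

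Of the 3 GTPases, GBP2 was called higher with CoCl2 than with OD. GBP2, a guanylate-binding protein best known as a target of interferon gamma, had 0.484, 0.637 and 0.673 CPM in control, 5.79, 5.18 and 4.67 with CoCl2 and 1.499, 1.69 and 1.44 with OD. Its groups were separate, and it rose by 3.10 (SE 0.22, adjusted p = 4.10e-20) with CoCl2 and by 1.36 (SE 0.27, adjusted p = 1.51e-05) with OD. GBP2 had 9, 13 and 12 counts in control and passed the filter with treated libraries in which it was high. Between the agents its log2 fold change was 1.74 (SE 0.18), and IRF3 was the other member called higher with CoCl2. MX1, a dynamin-like GTPase that traps viral nucleocapsids, had 6, 3 and 4 counts in control, 25, 27 and 40 with CoCl2 and 22, 24 and 19 with OD. It rose by 3.03 (SE 0.35) with CoCl2 and 2.13 (SE 0.39) with OD from those 3 to 6 counts. MX1 reached 10 counts in the treated libraries alone and so entered the test through the groups in which it was high. The difference between agents for MX1 was 0.89 (SE 0.25), short of the fold limit, and 1.03 without CoCl2 replicate 1. MX2 had at most 6 counts in a library and was not tested.

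ISG15 is a ubiquitin-like protein that is attached to other proteins, and USP18 is the protease that removes it and also damps signalling at the interferon receptor. ISG15 (chr1:1001138-1014540, plus strand) was at 13.7, 13.8 and 13.1 CPM in control, 20.3, 19.3 and 24.0 with CoCl2 and 33.9, 32.6 and 31.9 with OD. Its groups did not overlap, and it rose by 1.28 (SE 0.075, adjusted p = 1.82e-23) with OD and by 0.66 (SE 0.083, adjusted p = 9.11e-11) with CoCl2. USP18 had 6, 8 and 9 counts in control, 5, 4 and 3 with CoCl2 and 34, 35 and 47 with OD. The OD libraries stood apart from the rest, and USP18 rose by 2.17 (SE 0.31, adjusted p = 1.06e-08) with OD, while its value with CoCl2 was -0.68 (SE 0.51, adjusted p = 0.213). USP18 reached 10 counts in the OD libraries alone and so entered the test through the group in which it was high. Under scaling on library size alone its CoCl2 value was -1.18 with an adjusted p of 0.0306. Reads of USP18 may be shared with its near-identical copy USP41.

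Among the remaining effectors, SAMD9, a restriction factor of poxviruses, had 6, 3 and 3 counts in control, 2, 7 and 6 with CoCl2 and 23, 22 and 37 with OD. It rose by 2.58 (SE 0.41, adjusted p = 1.11e-07) with OD, and the CoCl2 and control libraries overlapped. Like USP18, it reached 10 counts in the OD libraries alone and entered the test through them. TRIM21, a ubiquitin ligase that binds antibodies inside the cell, was at 7.21 to 8.55 CPM in control, 14.8 to 17.7 with CoCl2 and 18.2 to 18.6 with OD. TRIM21 rose by 1.06 (SE 0.096) with CoCl2, which was 0.99 without control replicate 2 and 0.56 under scaling on library size alone, and by 1.22 (SE 0.090) with OD. IFI44, IFI44L and XAF1 were at 0 in all 3 control libraries, which allows up to 0.0528 CPM over the group, and had at most 5 counts in any library.

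The paralogs IFI6 and IFI27 encode small hydrophobic membrane proteins. IFI6 rose from 4.09 to 4.68 CPM in control to 8.90 to 9.63 with OD (1.08, SE 0.12), and with CoCl2 it was at 5.54 to 6.61 CPM (0.49, SE 0.13, or -0.012 under scaling on library size alone). IFI27 was scarcer, with 10, 3 and 6 counts in control, 23, 14 and 34 with CoCl2 and 18, 29 and 15 with OD. It was called higher with both agents, by 2.11 (SE 0.36) and 1.53 (SE 0.38), and the 2 agents overlapped. Among the control libraries only replicate 1 reached 10 counts, so IFI27 passed the filter through the treated groups, in which it was high. IFI6 shares 23.1% of its exonic bases with another gene on the same strand.

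Of the genes whose products act at membranes, BST2 fell with both agents. BST2 (chr19:17402939-17405630, minus strand), or tetherin, holds budding virions at the cell surface. It was at 49.2, 43.8 and 47.2 CPM in control, 36.3, 32.9 and 34.3 with CoCl2 and 28.1, 27.2 and 30.6 with OD. Every treated library lay below every control library, and BST2 fell by 0.43 (SE 0.062, adjusted p = 5.57e-09) with CoCl2 and by 0.71 (SE 0.062, adjusted p = 5.86e-16) with OD on the log2 scale. Its upstream sequence, printed above, holds 2 overlapping ISRE matches. Between the agents it was higher with CoCl2 by 0.27 (SE 0.065), or -0.27 under scaling on library size alone.

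The IFITM proteins, which block fusion of viruses with the cell, were scarce and are close paralogs whose reads may be divided uncertainly. IFITM2 had 10, 12 and 6 counts in control, 4, 4 and 2 with CoCl2 and 12, 11 and 12 with OD. It passed the filter only with its OD libraries. Its call lower with CoCl2 (-1.21, SE 0.51, adjusted p = 0.0251) was not stable, with an adjusted p of 0.0643 without control replicate 1, 0.0967 without control replicate 2, 0.175 without CoCl2 replicate 3 and 0.153 in DESeq2. Its difference between CoCl2 and OD (-1.38, SE 0.49, adjusted p = 0.00815) had an adjusted p of 0.0897 without CoCl2 replicate 3 and of 0.0862 and 0.111 in DESeq2 on 9 and on 6 libraries. IFITM1 and IFITM3 had 8, 10 and 6 and 10, 6 and 7 counts with OD and at most 5 in any other library. For each, every OD library lay above every control library, with an exact two-sided permutation p of 0.1, the smallest that 3 libraries against 3 allow. For IFITM1, 31.6% of exonic bases overlap other genes.

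IFIH1 (MDA5), a sensor of long double-stranded viral RNA, had 30, 29 and 17 counts in control, 33, 25 and 36 with CoCl2 and 53, 58 and 61 with OD. It rose by 1.02 (SE 0.21, adjusted p = 1.94e-05) with OD and by 0.55 (SE 0.24, adjusted p = 0.0291) with CoCl2. The OD value was 0.84 without control replicate 3 and 0.90 without OD replicate 3, both short of the fold limit. DHX58, the related regulator of RNA sensing, had at most 10 counts in a library.

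Levels of different genes can be set side by side per kilobase of merged exon. The merged length takes in the exons of all annotated transcripts, so the order of the genes depends on the annotation. OAS3, with 18045 such bases, was at 2.14 CPM per kb in control. In control, BST2 led at 42.4 CPM per kb, followed by IRF3 at 16.6 and ISG15 at 15.6, whose library values overlapped (15.6 to 17.5 and 15.1 to 15.9), and then DTX3L at 5.42. With CoCl2 the order was BST2 at 31.3, IRF3 at 28.003 and ISG15 at 24.5, with overlapping libraries for IRF3 (27.60 to 28.46) and ISG15 (22.31 to 27.64). With OD, ISG15 led at 37.8 CPM per kb, and BST2 was second at 26.0. The ISG15 libraries with OD (36.8 to 39.1 CPM per kb) did not overlap those of BST2 (24.7 to 27.8).

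The changes can be set beside the ISRE matches. Of 16 tested members with a match in a window, 11 were called higher with OD and 0 lower. Of all tested genes, 9.09% and 4.16% were. The median log2 fold change of the 16 was 1.25. Among them, MX1 and SAMD9 reached 10 counts in treated libraries alone and entered the test through those. IFIT1, IFIT5 and IFI27 did not reach 10 counts in every control library and passed the filter with treated libraries in which they were high. With CoCl2 3 of the same 16 were called higher and 4 lower, where 19.9% and 23.4% of all tested genes were. The median of the 16 with CoCl2 was 0.52. The 5 members with windows lacking the core had 1 called higher and 1 lower with CoCl2, with a median of 0.24. With OD 1 of these 5 was called higher and 0 lower, with a median of 0.75. The remaining 7 tested members had no RefSeq window, and 4 of them were called higher with OD, with a median of 1.20. USP18, IFIT2 and GBP2 among them passed the filter with treated libraries in which they were high. With CoCl2 3 of these 7 were called higher and 1 lower, with a median of 0.75.

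The upstream pathway was described from lists of other genes. The list of 10 interferon ligand genes held IFNA1 and IFNA2 and no other IFNA gene. All 10 were at or near 0: 6 of them had no count in any library, all stayed under 10 counts, and none was tested. Interferon protein was not measured here. Of 10 receptor and kinase genes, 0 were called against control with either agent in edgeR, and 0 in DESeq2. At an unadjusted p under 0.05, 3 were higher and 5 lower with CoCl2, and 8 were higher and 1 lower with OD. Under scaling on library size alone 3 of the 10 were called lower with CoCl2. JAK1 rose by 0.95 (SE 0.049) with CoCl2 and 0.44 (SE 0.050) with OD, values that were 0.45 and 0.48 under that scaling. IFNAR2, a chain of the type I receptor, was lower with CoCl2 than with OD (-1.23, SE 0.24).

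Genes of nucleic acid sensing changed in both directions with CoCl2. Of 7 tested, 3 were called higher and 2 lower with CoCl2, where 19.9% and 23.4% of all tested genes were, and with OD edgeR called 0 in either direction, with 3 higher and 2 lower at an unadjusted p under 0.05. DESeq2, which tested more genes than edgeR, called 2 of this list higher with OD. Scaled on library size alone, 1 was called higher and 4 lower with CoCl2, and 1 higher and 0 lower with OD. MAVS, the mitochondrial adaptor of RNA sensors, was at 151, 143 and 147 CPM in control, 29.2, 28.6 and 36.4 with CoCl2 and 182, 185 and 180 with OD. The CoCl2 libraries lay far under the rest, and MAVS fell by 2.21 (SE 0.057, adjusted p = 6.77e-41) on the log2 scale. IKBKE, a kinase of IRF3 and IRF7, fell by 1.84 (SE 0.10) with CoCl2, while its relative TBK1 rose by 1.29 (SE 0.056), or 0.78 and short of the fold limit under scaling on library size alone. DDX58 (RIG-I), the sensor of short viral RNA, was at 9.41 to 11.0 CPM in control. It rose to 31.4 to 35.3 CPM with CoCl2 (1.69, SE 0.082) and to 18.3 to 21.3 with OD (0.97, SE 0.085). The OD value was 1.01 and past the fold limit under scaling on library size alone.

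A further 40 interferon-stimulated genes outside the list held 28 tested genes, of which 4 (14.3%) were called higher and 10 (35.7%) lower with CoCl2, where 19.9% and 23.4% of all tested genes were. With OD 5 (17.9%) were called higher and 0 lower, against 9.09% and 4.16%. The CoCl2 counts were 2 and 11 under scaling on library size alone, where the median of all tested genes was -0.55. In DESeq2 0 were called lower with OD, and 6 were lower at an unadjusted p under 0.05. Their median log2 fold change was -0.21 with CoCl2, 0.40 with OD and -0.62 between the agents. In edgeR 11 were called lower with CoCl2 than with OD and 0 higher, where 23.8% and 17.5% of all tested genes were. DESeq2 called 11 lower and 2 higher there, and 2 were higher at an unadjusted p under 0.05 in edgeR. Under scaling on library size alone 18 were called lower and 0 higher. The median of all tested genes was itself -0.60 under that scaling. TRIM14, an adaptor of MAVS signalling, was at 45.2, 46.2 and 42.5 CPM in control, 8.52, 8.43 and 8.49 with CoCl2 and 43.3, 41.7 and 38.8 with OD, and it fell by 2.39 (SE 0.079) with CoCl2. EIF2AK2 (PKR), a kinase that halts translation on double-stranded RNA, fell by 1.38 (SE 0.065) with CoCl2. UBE2L6, the conjugating enzyme for ISG15, fell by 1.88 (SE 0.13). APOL6, an apolipoprotein L, was at 10.5, 10.0 and 8.64 CPM in control, 9.52, 9.29 and 10.1 with CoCl2 and 43.3, 41.9 and 45.4 with OD, a log2 fold change of 2.15 (SE 0.076, adjusted p = 1.24e-34) with OD.

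**Figure D5:**
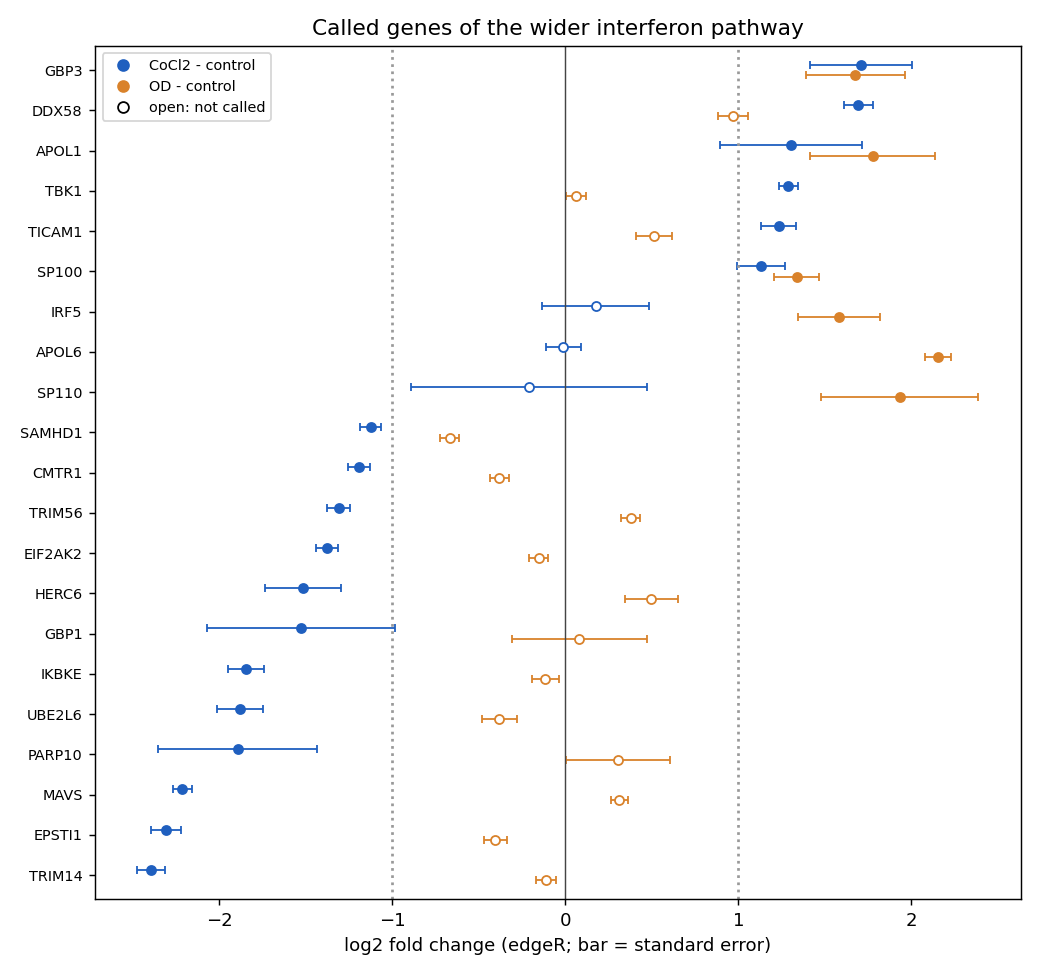
Log2 fold change against control with CoCl2 and with OD of the genes on the wider pathway lists that were called with either agent and are reported here, ordered by change, with bars for standard errors and open points for values not called. TRIM14, EPSTI1 and MAVS lie furthest below 0 with CoCl2, and APOL6 lies furthest above 0 with OD.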

How the data were processed

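The authors checked single-end reads with FastQC 0.11.9, trimmed adapters with cutadapt 2.10 and mapped them with STAR 2.7.5b to GRCh38.p13. The deposited values are raw read counts per gene symbol, made by the authors with GENCODE annotation; the counting tool and its strand setting are not given in the sources used here. TMM factors and the filter on low counts came from edgeR 4.0.16 (R 4.3.3), which left 15944 of 60591 symbols to test. Its robust quasi-likelihood fit used all 9 libraries with 1 mean per group, and p-values were adjusted after Benjamini and Hochberg over all tested genes. Alternatives used DESeq2 1.42.0, other scaling, no filter, 6 libraries, a replicate block and each library left out. The fit was also run on simulated data, and the outcome of that run is not reported here. Positions came from GENCODE on GRCh38, and promoters from RefSeq on GRCh38.p14. Limits from 3 counts cover counting error only. The members and gene lists were chosen with earlier results of these data known. Members are all named, with further pathway genes by call and mean level of at least 1 CPM. Some genes of the wider pathway lists enter the counts but are not reported here by name.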

Additional observations from a re-analysis of the deposited data

How the results depend on the processing

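Of 1340 values of single members under the alternatives, 1290 kept their direction and call, 22 lost a call, 10 gained one and 18 reversed. The number of members called higher ranged from 5 to 7 with CoCl2, from 15 to 17 with OD and from 1 to 3 for CoCl2 against OD, and the number called lower from 4 to 7, from 0 to 0 and from 10 to 16. With library size alone, 1 member, GBP2, was called higher with CoCl2 than with OD. With the replicate block the counts were 7 and 6 with CoCl2, 16 and 0 with OD, and 2 and 11 between agents, so it changed none of them. Same-numbered libraries were not treated as paired in the main fit, since the titles state no pairing. Of 9 correlations of their deviations, 3 exceeded 0.1 (-0.087 to 0.21), and 9 of 18 best matches shared a number. These values cannot settle whether the libraries were paired.

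Scaling on library size alone reversed CoCl2 against control for the median of the members (-0.057), STAT2 (-0.15), IRF9 (-0.26), IRF1 (-0.44), IRF2 (-0.10), IFIT3 (-0.26) and IFI6 (-0.012), and CoCl2 against OD for IRF9 (-0.29), IRF7 (-0.092) and BST2 (-0.27). IRF9 with OD was 0.025 under that scaling, 0.00053 with DESeq2 and 0.0016 with edgeR on 6 libraries, and -0.12 to 0.092 with a library left out. PARP14 with CoCl2 was 0.026 with RLE factors and -0.066 to 0.024 with a library left out, and IFITM2 with OD was -0.031 to 0.33. The causes were not tested beyond the scaling itself. The 9 members with at most 10 counts in any library were left out by the count filter.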

Other observations

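Among other interferon regulatory factors, IRF5, a factor of inflammatory cytokine genes, was at 0.646, 0.882 and 0.954 CPM in control and 2.23, 2.84 and 2.40 with OD, and rose by 1.58 (SE 0.24) with OD. Of 5 negative regulators of the pathway, edgeR and DESeq2 called 0 against control with either agent. At an unadjusted p under 0.05, 3 were higher and 0 lower with CoCl2, and 3 higher and 2 lower with OD.

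The libraries with the highest level of the 9 untested members were not spread evenly. CoCl2 replicate 2 held the highest CPM for 6 of them (DHX58, OAS2, OASL, IFI44, IFI44L and XAF1), a pattern noticed after the values were seen. Among 12060 untested symbols with totals of 3 to 42 counts, 18.6% had their highest level in that library. IFI44 had 5 of its 6 counts there. XAF1 had 1 count there and 1 in each of OD replicates 2 and 3, so its highest CPM rests on the scaling alone. IFI44L had 2 counts there and 1 in OD replicate 2. A cause was not tested.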
